A study of Mus musculus with 2 samples.

Results

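The interferon-inducible GTPases of the guanylate-binding protein (GBP) and immunity-related GTPase (IRG) families were examined in bone marrow mesenchymal stem/progenitor cells lacking PPARg. The 7 genes described here are Gbp2, Gbp3 and Gbp7 of the GBP family and Irgm1, Irgm2, Igtp and Iigp1 of the IRG family. All 7 of 7 were found among the 25941 genes and unnamed loci of the files. They were chosen on their measured difference between the PPARg-deficient and the PPARg-floxed library, so that difference is given as a description and no test of it was made. There were 2 libraries, 1 of cells labelled PPAR KO and 1 of cells labelled PPAR-f/f, the floxed allele. Both came from 3-month-old CD-1 mice, an outbred stock, and both were grown in DMEM with fetal bovine serum. The labels do not say how the floxed allele was deleted, how many animals were pooled or whether any interferon was added. With 1 library a group there is no replicate check, and clone, culture, animal and genotype cannot be told apart.

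GBPs and IRGs are large and mid-sized GTPases that interferon induces strongly in most mouse cells, including cells outside the immune system. GBPs are relatives of dynamin that gather on the membranes of vacuoles holding intracellular parasites or bacteria, and several of them are anchored there by a prenyl lipid. IRG proteins fall into effectors, which load onto the vacuole and break it, and regulators named IRGM proteins, which sit on the cell's own organelles and hold the effectors inactive there. The effectors carry a GKS triplet in the first GTP-binding loop, as most GTPases do, and the regulators carry GMS. Type I interferon acts on promoters through an element called ISRE, and interferon gamma through an element called GAS.

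Pparg itself had 1.39 FPKM in the deficient library against 6.86 FPKM in the floxed one. FPKM counts fragments per transcript length and per library total. A fold is given as log2 of (FPKM + 1), deficient over floxed, which understates the change of low genes. The median of all 10759 kept genes and loci lay 0.86 above 0 on that scale, a 1.81-fold shift, so folds are given relative to this median gene and, where it matters, as deposited. On these scales Pparg was at -2.58 and -1.72. Summed transcript coverage was 1728 megabases in the deficient library against 1383 megabases in the floxed one, and 10918 and 8904 genes or loci reached 1 FPKM. Of 13 stromal markers, 10 were kept through both libraries, with 1 lower and 1 higher by 2-fold or more relative to the median gene and 0 lower and 3 higher as deposited. Shares over all kept genes and loci were 11.8% lower and 10.3% higher relative to the median gene, and 4.64% and 42.0% as deposited. Col1a1 had 191 FPKM in deficient and 173 FPKM in floxed cells, and Ly6a had 841 and 530 FPKM. Cxcl12, the higher one, had 318 FPKM in deficient and 60.4 FPKM in floxed cells, and Nt5e, the lower one, had 1.01 and 1.86 FPKM. Pdgfra had 6.82 FPKM in deficient and 1.37 FPKM in floxed cells, and Pdgfrb had 74.0 and 21.8 FPKM. Eng and Thy1, both used to define these cells, were under 1 FPKM in both. The 13 matched macrophage and leukocyte markers summed to 22.0 FPKM in deficient and 1.84 FPKM in floxed cells, and 8 and 10 of them were listed at 0. Most of the sum in deficient cells was Lyz2, at 19.5 FPKM against 0.259 FPKM in floxed cells, and Ptprc, Itgam, Adgre1 and Cd3e were listed at 0 in both. The 7 matched endothelial and erythroid markers summed to 0.740 and 0.0211 FPKM. The part of these markers in the results was not tested. In such a bulk sample fewer cells of a type and less RNA per cell cannot be told apart.

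The promoters of the GTPase genes are shown because the motifs through which interferon factors act often lie just before the start of a gene. RefSeq promoters (GRCm38.p6) were matched for 6 of the 7 genes, 7 promoters in all since Gbp3 has a pair of starts, and Iigp1 had no entry. Each line gives the 120 bases before the start, 5′ to 3′ on the gene's strand, and capitals mark matches on either strand to an ISRE core, GAAANNGAA, or to a GAS, TTCNNNGAA.
Igtp, chr11:58199436-58199555, plus strand: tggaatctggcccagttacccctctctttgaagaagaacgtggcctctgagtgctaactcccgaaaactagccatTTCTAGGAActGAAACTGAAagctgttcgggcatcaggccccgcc
Irgm2, chr11:58214857-58214976, plus strand: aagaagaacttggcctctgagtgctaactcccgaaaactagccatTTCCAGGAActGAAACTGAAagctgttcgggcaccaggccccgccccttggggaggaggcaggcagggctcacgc
Irgm1, chr11:48871421-48871540, minus strand: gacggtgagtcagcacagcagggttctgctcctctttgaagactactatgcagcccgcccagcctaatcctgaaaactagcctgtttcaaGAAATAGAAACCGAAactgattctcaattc
Gbp7, chr3:142530216-142530335, plus strand: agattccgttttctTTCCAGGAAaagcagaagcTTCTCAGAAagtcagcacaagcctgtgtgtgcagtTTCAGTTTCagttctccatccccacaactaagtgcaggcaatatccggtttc
Gbp3, chr3:142559924-142560043, plus strand: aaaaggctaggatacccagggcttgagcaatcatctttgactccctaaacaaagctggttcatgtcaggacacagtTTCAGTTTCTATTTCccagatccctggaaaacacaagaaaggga
Gbp2, chr3:142620543-142620662, plus strand: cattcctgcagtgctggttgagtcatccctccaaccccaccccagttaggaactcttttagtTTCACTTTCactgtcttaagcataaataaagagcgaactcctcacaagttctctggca

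The ISRE core was found in 6 of the 7 promoters, at least once in each of the 6 genes. It was found in 8.56% of the 32851 RefSeq promoters of 300 bases outside chromosome 18, called all promoters here. Of the 7, the promoter without the ISRE core was the downstream one of Gbp3. The first base of the ISRE core stood 34 bases before the start in Igtp, 64 in Irgm2, 58 in Gbp2, 52 in Gbp7, 44 and 38 in Gbp3, and 30 and 24 in Irgm1, and the matches overlapped each other in the last pair of genes. The GAS was found in Igtp, Irgm2 and Gbp7, which is 3 of 7 promoters, against 8.30% of all promoters. Both motifs together stood in those same 3, against 1.07% of all promoters. Of 11 promoters found for the other GBP and IRG genes, 7 (63.6%) held the ISRE core, 5 (45.5%) the GAS and 5 (45.5%) both. A match of letters is a description of the sequence and not evidence of binding.

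Igtp and Irgm2 shared a run of 61 identical bases in their promoters. Among the other pairs of genes, the longest run shared by their promoters had 13 bases, in Gbp3 and Gbp7. The 61-base run began after the marked motifs and held no match to either. In Igtp it ran past the start to the end of the 300-base window. Igtp and Irgm2 also shared shorter runs, including the ISRE core with bases on both sides of it. In both promoters the GAS letters, TTCTAGGAA in Igtp and TTCCAGGAA in Irgm2, were followed 2 bases later by the ISRE core. This arrangement was looked for after the sequences had been read. It occurred in 8 of the 32851 promoters (0.0244%), and 5 of these 8 belonged to IRG genes, namely Igtp, Irgm2, Tgtp1, Tgtp2 and Gm12185. These 5 are related copies and are not independent of each other.

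The codons of the first GTP-binding loop are shown because they separate the IRG regulators from the effectors. They were read from GENCODE M21 coding sequences (GRCm38), 24 bases each, with the codon that decides between GKS and GMS in capitals. Tgtp2 is included as an effector.
Irgm1, chr11:48866761-48866784, minus strand: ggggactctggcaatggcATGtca
Irgm2, chr11:58219695-58219718, plus strand: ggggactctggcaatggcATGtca
Igtp, chr11:58206275-58206298, plus strand: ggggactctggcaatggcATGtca
Tgtp2, chr11:49059534-49059557, minus strand: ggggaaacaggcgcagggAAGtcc
Gbp2, chr3:142623826-142623849, plus strand: ggcctctaccgcacaggcAAAtcc
Gbp3, chr3:142561878-142561901, plus strand: ggtttatatcgtacagggAAGtcc
Gbp7, chr3:142534655-142534678, plus strand: ggactataccgtacgggaAAAtcc

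Irgm1, Irgm2 and Igtp had the same 24 bases, with ATG for methionine at the deciding codon. Irgm2 and Igtp are neighbours on chromosome 11, and Irgm1 lies apart from them on its other strand. The 3 GBP genes and Tgtp2 had AAA or AAG for lysine there. The longest annotated coding sequences held 589, 620 and 638 codons for Gbp2, Gbp3 and Gbp7, against 409, 407 and 423 for Irgm1, Irgm2 and Igtp.

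Relative to the median gene, all 7 genes had levels in the deficient library that were lower by 2-fold or more, where 11.8% of all kept genes and loci were that much lower and 10.3% were that much higher. As deposited, 7 of 7 were lower as well, beside 4.64% lower and 42.0% higher over all genes. Since the genes were chosen on this contrast, nothing is read from the share. Their relative log2 folds ran between -5.55 and -2.24 with a median of -4.61, and the as-deposited median was -3.75. The 7 genes summed to 72.7 FPKM in deficient cells and 418 FPKM in floxed cells. Irgm1 alone made up 88.0% of that sum in the deficient library against 72.5% in the floxed one. Without Irgm1 and Gbp2 the other 5 summed to 1.34 FPKM in deficient and 94.3 FPKM in floxed cells.

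The genes fell into a pair of patterns. Irgm1 and Gbp2 stayed well above 1 FPKM in both libraries. Gbp3, Gbp7, Igtp, Irgm2 and Iigp1 were all under 1 FPKM in the deficient library and spanned 8.17 to 30.5 FPKM in the floxed one. They passed the filter of 1 FPKM through the floxed library only, which fixes the direction of a difference in FPKM but not its size. At under 1-fold mean coverage their deficient values rest on very few fragments, and their ratios are given between the nearest deposited bounds of the main transcript, which describe the estimate within 1 library.

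**Figure D1:**
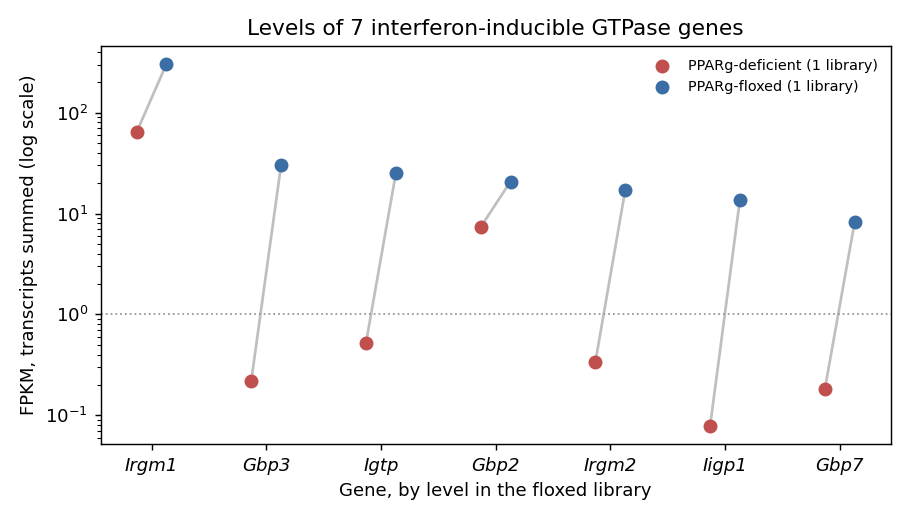
Level of each of the 7 genes in FPKM on a log axis, with the PPARg-deficient library to the left of the PPARg-floxed library, 1 library each and no error bars. The dotted line marks 1 FPKM. Irgm1 and Gbp2 stay above it in both libraries, and the other 5 genes lie below it in the deficient library.

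Among the 3 GBP genes Gbp2, Gbp3 and Gbp7, the smallest difference was that of Gbp2, whose protein is recruited to Toxoplasma vacuoles in mouse cells. It had 7.36 FPKM in the deficient library against 20.7 FPKM in the floxed one, 2.82-fold lower in deficient cells. The bounds of its only transcript, of 11 exons on chromosome 3 from 142283627 to 142300972 (mm9, plus strand), were 6.17 to 8.54 FPKM in deficient and 18.7 to 22.8 FPKM in floxed cells and did not overlap. Its relative log2 fold was -2.24.

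Gbp3 (chromosome 3, 142223016 to 142236176, plus strand) had 0.221 FPKM in the deficient library against 30.5 FPKM in the floxed one. Its relative log2 fold on FPKM + 1, -5.55, was the largest of the 7 and the 25th lowest of all 10759 kept genes and loci. On plain FPKM the ratio of floxed over deficient was larger for Iigp1, at 175 against 138 for Gbp3. The deficient bounds of their main transcripts, 0 to 0.1885 FPKM for Iigp1 and 0.0227 to 0.4185 FPKM for Gbp3, overlapped, so the order of these ratios is not resolved. Gbp7 (142193302 to 142213047, plus strand) had 0.180 FPKM in deficient cells and 8.17 FPKM in floxed cells, with a relative log2 fold of -3.81. Between nearest bounds the ratio of floxed over deficient was 36.5 for the main Gbp3 transcript and 24.7 for that of Gbp7. Of the 50-base windows of Gbp7 transcripts, 12.7% also occurred in other genes, mostly in the annotated gene Gm43802, so its reads may be split. The share was 3.75% for Gbp3 and 2.03% for Gbp2.

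These 3 genes lie in a row of GBP genes on 1 strand of chromosome 3 in which the other members were nearly silent in both libraries. Gbp5, the neighbour before Gbp7, was listed at 0 in both. Gbp2b, whose transcript ends at 142282140 just before Gbp2 begins, had 0.0408 FPKM in deficient and 0.211 FPKM in floxed cells. The GBP genes of chromosome 5 were also low. Gbp6 was listed at 0 in the deficient library against 2.07 FPKM in the floxed one, and Gbp9 at 0 against 1.13 FPKM. Gbp10 was listed at 0 against 0.492 FPKM, but 70.7% of the 50-base windows of Gbp6 and 84.1% of those of Gbp10 occurred in other genes. Gbp4 and Gbp8 were listed at 0 in deficient cells and below 0.05 FPKM in floxed cells, and Gbp11 at 0 in both.

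Among the IRG regulators, Irgm1, which in mice restrains the effectors and supports autophagy, was the most abundant of all 7 genes in both libraries. It had 64.0 FPKM in the deficient library against 303 FPKM in the floxed one, 4.74-fold lower in deficient cells, and its relative log2 fold was -3.08. It ranked 1900th among all genes and loci in the deficient library against 461st in the floxed one. It lies on chromosome 11 from 48678747 to 48686357 (minus strand). Its 3-exon transcript had 51.4 FPKM in deficient and 273 FPKM in floxed cells, and its 2-exon transcript had 12.6 FPKM in deficient and 30.5 FPKM in floxed cells. Both pairs of bounds were apart. The 2-exon form thus made up 19.6% of Irgm1 in deficient cells and 10.0% in floxed cells.

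Igtp encodes Irgm3, a regulator found on the endoplasmic reticulum and lipid droplets in mouse cells. It had 0.523 FPKM in the deficient library, with bounds of 0.1515 to 0.8945, and 24.9 FPKM in the floxed library, with bounds of 22.5 to 27.4. Between nearest bounds the ratio of floxed over deficient was 25.1 for Igtp, and its relative log2 fold was -4.95. Its only transcript has 3 exons on chromosome 11 from 58013058 to 58021094 (plus strand).

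Irgm2, a regulator of Golgi membranes, had 0.339 FPKM in the deficient library against 17.0 FPKM in the floxed one, a relative log2 fold of -4.61. The files hold 3 transcripts for it, all of 2 exons, all ending at 58036285 and all named from 1 intron with its exon, a match on few lengths. The one starting at 58028479 had 11.6 FPKM in floxed cells and the one starting at 58030495 had 3.88 FPKM, while both were near 0 in deficient cells, with upper bounds of 0.0645 and 0.0684 FPKM. Between nearest bounds the ratio of floxed over deficient was 158 and 41.8 for these. The third starts at 58013058, the first base of Igtp, and had 0.339 FPKM in deficient and 1.52 FPKM in floxed cells. Its bounds did not overlap, with a ratio of 1.64 between the nearest. It held 100% of the Irgm2 signal in the deficient library against 8.91% in the floxed one. Igtp and Irgm2 are 1 locus in the files because of this transcript, and 11.8% of the 50-base windows of Igtp also occurred in Irgm2.

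Iigp1 encodes Irga6, the best studied IRG effector, which coats and disrupts Toxoplasma vacuoles in mouse cells. It had 0.0781 FPKM in the deficient library against 13.7 FPKM in the floxed one, a relative log2 fold of -4.62. It lies on chromosome 18 from 60535683 to 60552283 (plus strand). The 2-exon transcript had 0.0781 FPKM with an upper bound of 0.189 in deficient cells and 10.0 FPKM with a lower bound of 8.58 in floxed cells, 45.5-fold apart between these bounds. The 3-exon transcript was near 0 in deficient cells and had 3.66 FPKM in floxed cells.

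In the floxed library the order from high to low was Irgm1, Gbp3, Igtp, Gbp2, Irgm2, Iigp1 and Gbp7. The bounds of Igtp and Gbp2, which have 1 transcript each and stand next to each other in that order, overlapped. In the deficient library the order was Irgm1, Gbp2, Igtp, Irgm2, Gbp3, Gbp7 and Iigp1. For the last 5, the deficient bounds of the transcript with most of each gene's signal overlapped, so their order is not resolved. Over the 13 transcripts of the 7 genes, the deficient bounds lay below the floxed bounds in 12 and above them in 0. Over all 25911 transcripts of kept genes and loci, they lay below in 10.2% and above in 42.8%, and since the genes were chosen on this contrast nothing is read from the difference. In the 13 they overlapped in 1, a Gbp7 transcript at nearly 0 in both libraries.

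**Figure D2:**
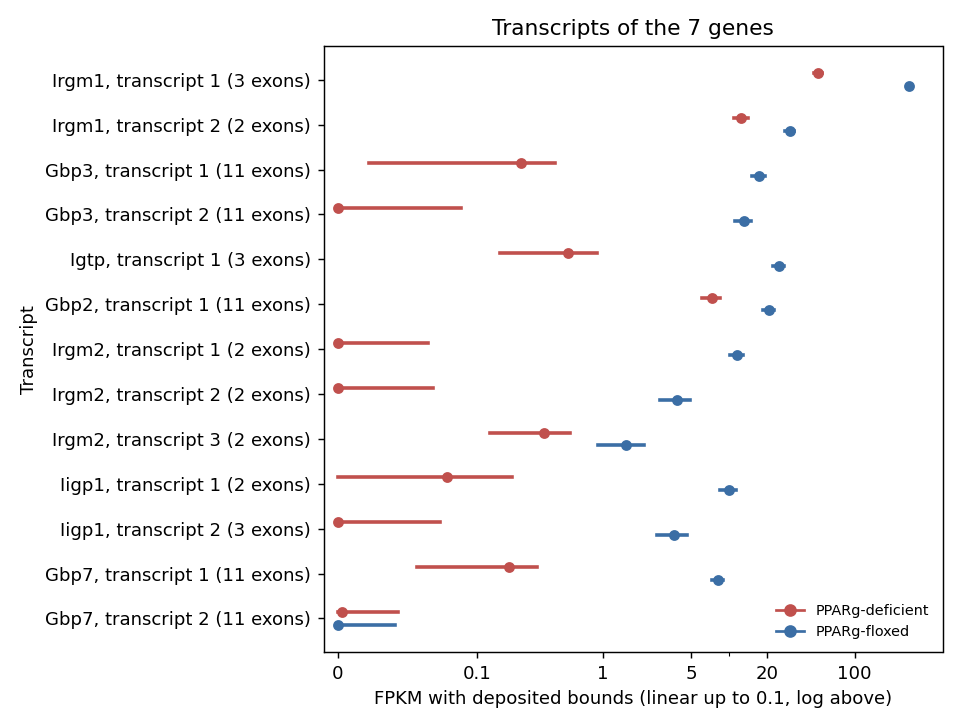
FPKM of the 13 transcripts of the 7 genes with the lower and upper bounds deposited for each, the PPARg-deficient library drawn above the PPARg-floxed library. The axis is linear up to 0.1 FPKM and logarithmic above. The bounds are apart in 12 transcripts and overlap in the second Gbp7 transcript.

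The other genes of both families gave 7 of 8 kept genes lower and 0 higher relative to the median gene, and 6 lower and 1 higher as deposited, of 20 that were matched to the files. The shares over all kept genes and loci were 11.8% lower and 10.3% higher, and 4.64% and 42.0% as deposited. Of the 8, Gbp6, Gbp9, Tgtp1, Tgtp2 and Gm4951 passed the filter through the floxed library only, which fixed their direction in FPKM, so the count supports nothing. In the floxed library the 2 highest were the IRG effectors Tgtp1 and Tgtp2, also known as Irgb6. Tgtp2 had 0.896 FPKM in deficient cells and 133 FPKM in floxed cells, a relative log2 fold of -7.00, and Tgtp1 had 0.898 FPKM and 75.2 FPKM, a relative log2 fold of -6.18. Of the 50-base windows of Tgtp1 79.4% occurred in Tgtp2, and of those of Tgtp2 85.8% occurred in Tgtp1, so the split between them is uncertain and only their common direction can be read. Ifi47, also called Irgd, had 6.20 FPKM in deficient cells and 34.9 FPKM in floxed cells, a relative log2 fold of -3.17.

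Ifi47, like Irgm2, differed by transcript. The one that starts upstream, at 48890104, had 6.20 FPKM in deficient and 13.5 FPKM in floxed cells. The one that starts at 48900557 was near 0 in deficient cells, with an upper bound of 0.1455 FPKM, and had 19.5 FPKM in floxed cells. The upstream form therefore made up 100% of Ifi47 in the deficient library against 38.8% in the floxed one.

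Gm4951, an IRG gene that lies before Iigp1 on chromosome 18, had 0.0437 FPKM in deficient and 3.66 FPKM in floxed cells. The nearly identical IRG copies 9930111J21Rik1 and 9930111J21Rik2 were listed at different levels. 9930111J21Rik1 had 22.1 FPKM in deficient and 30.9 FPKM in floxed cells, which was lower relative to the median gene and within 2-fold as deposited. 9930111J21Rik2 had 2.24 FPKM in deficient and 0.440 FPKM in floxed cells, within 2-fold relative to the median gene and higher as deposited. It passed the filter through the deficient library only, which fixed its direction in FPKM. Of the 9930111J21Rik1 signal, 98.7% in deficient and 99.8% in floxed cells was 1 transcript, from 48758055 to 48864999, that runs across both copies. Of their windows, 83.2% and 59.8% occurred in other genes, so their levels and the split between them are uncertain. Gm12185, F830016B08Rik, Gm5431, Irgq and Gvin1 were under 1 FPKM in both libraries, and Irgc1 was listed at 0 in both. All 27 matched genes of the families summed to 106 FPKM in deficient and 703 FPKM in floxed cells.

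**Figure D3:**
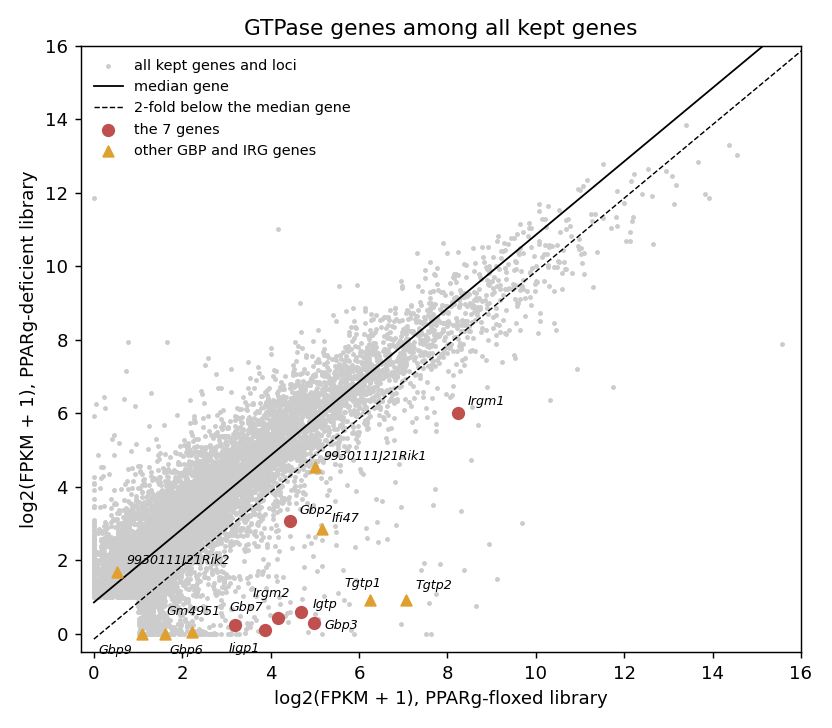
log2(FPKM + 1) of each kept gene or locus in the PPARg-deficient library (vertical axis) and the PPARg-floxed library (horizontal axis). The solid line marks the median gene and the dashed line lies 2-fold below it. The 7 genes (circles) all lie below the dashed line, as do 7 of the 8 other GBP and IRG genes (triangles), with 9930111J21Rik2 above it.

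The signalling genes that lie between interferon and these promoters were examined as a list of 16, of which 12 were kept, 6 were lower and 0 higher relative to the median gene, with a median of -0.94. As deposited, 4 were lower and 2 higher. The shares over all kept genes and loci were 11.8% lower and 10.3% higher, and 4.64% and 42.0% as deposited. Of the 12, 1 passed the filter through the floxed library only and 2 through the deficient library only, which fixed their direction in FPKM but not its size. Usp18, an interferon-induced protease that removes ISG15 and damps the type I receptor, had 0.682 FPKM in deficient and 401 FPKM in floxed cells, and it passed the filter through the floxed library only. Irf9, a DNA-binding subunit of the factor that acts on ISRE, had 6.69 FPKM in deficient and 43.2 FPKM in floxed cells, a relative log2 fold of -3.38. Stat2, a transcription factor of the type I response, had 1.24 FPKM in deficient and 8.08 FPKM in floxed cells, a relative log2 fold of -2.88.

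The kinase Jak1, at 12.1 FPKM in deficient and 20.5 FPKM in floxed cells, and the receptor chain Ifngr2, at 3.15 and 3.90 FPKM, were lower relative to the median gene and within 2-fold as deposited. The following were named after their values were seen. Ifngr1, the ligand-binding chain of the interferon gamma receptor, had 49.3 FPKM in deficient and 19.2 FPKM in floxed cells. Ifnar1 of the type I receptor had 2.32 FPKM in deficient and 1.21 FPKM in floxed cells. Irf1, a factor that interferon gamma induces through GAS, had 8.73 FPKM in deficient and 8.29 FPKM in floxed cells, within 2-fold on both scales.

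Genes of the pathways in which GBP and IRG proteins work were counted by the same rule. Over all kept genes and loci, 11.8% were lower and 10.3% higher relative to the median gene, and 4.64% lower and 42.0% higher as deposited. Of 9 protein prenylation genes, through which some GBPs gain their membrane anchor, all were kept, 0 were lower and 0 higher relative to the median gene, and 4 were higher as deposited. Rabggta had 21.9 FPKM in deficient and 6.33 FPKM in floxed cells, Rabggtb had 69.2 and 22.3 FPKM, Fntb had 17.6 and 5.22 FPKM, and Fnta had 4.81 and 3.58 FPKM. Of 16 genes of ATG8 conjugation and autophagy adaptors, machinery that places IRG effectors and GBPs on vacuoles, all were kept, 1 was lower and 1 higher, with a median of 0.07. As deposited, 1 was lower and 6 higher. The lower one was Map1lc3b, an ATG8 protein, at 367 FPKM in deficient and 1090 FPKM in floxed cells. The higher one was the adaptor Sqstm1, or p62, at 27.2 FPKM in deficient and 3.99 FPKM in floxed cells. Atg3, the enzyme that attaches ATG8 to lipid, had 19.4 FPKM in deficient and 4.94 FPKM in floxed cells, and Atg5 had 48.5 and 15.3 FPKM, both within 2-fold of the median gene. In these lists 1 prenylation gene and 3 autophagy genes passed the filter through the deficient library only, which fixed their direction in FPKM.

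Inflammasome genes, which act with GBPs when bacteria reach the cytosol, gave 5 kept of 9, 3 of them lower and 0 higher. As deposited, 2 were lower and 1 higher. The shares over all kept genes and loci were 11.8% lower and 10.3% higher, and 4.64% and 42.0% as deposited. Casp1 and Casp4 passed the filter through the floxed library only, which fixed their direction in FPKM. Casp1 was listed at 0 in the deficient library against 7.20 FPKM in the floxed one, and Casp4, the sensor of cytosolic lipopolysaccharide, at 0 against 2.155 FPKM. Il18 had 10.2 FPKM in deficient and 16.6 FPKM in floxed cells, lower relative to the median gene and within 2-fold as deposited. Gsdmd had 2.55 FPKM in deficient and 2.74 FPKM in floxed cells, within 2-fold on both scales. Aim2, Nlrp3 and Il1b were listed at 0 in both libraries. Among 12 kept genes of the dynamin superfamily and atlastins, the structural relatives of GBPs, 2 were lower and 1 higher, with a median of 0.20. As deposited, 1 was lower and 8 higher. Of the 12, 4 passed the filter through the deficient library only, Opa1 among them, which fixed their direction in FPKM but not its size. The 2 lower ones were Mx2, itself interferon-induced, at 0.193 FPKM in deficient and 6.19 FPKM in floxed cells and kept through the floxed library only, and Atl1, at 1.36 and 1.82 FPKM. Ehd2 was higher at 111 FPKM in deficient and 23.4 FPKM in floxed cells, and Opa1 had 5.40 and 0.881 FPKM, within 2-fold of the median gene.

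**Figure D4:**
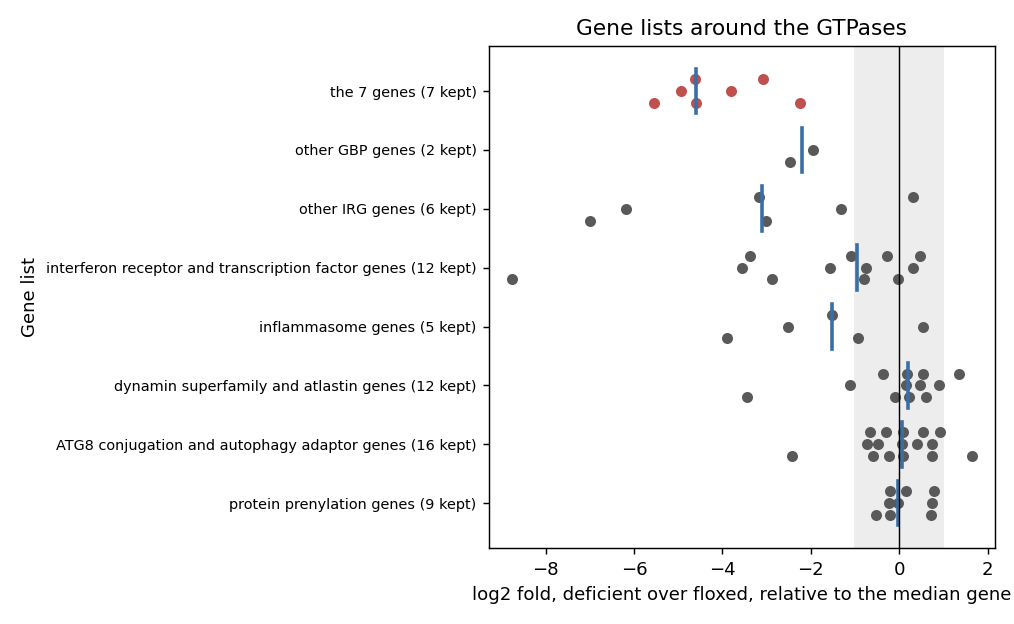
Relative log2 fold (deficient over floxed, on FPKM + 1, minus the median gene) of each kept gene of 8 lists, 1 point a gene, with the list's median as a vertical bar. The grey band marks folds under 2. The 7 genes lie between -5.55 and -2.24, while the medians of the prenylation, autophagy and dynamin lists lie within the band.

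The genes with the most similar levels in both libraries were found by distance on the log2 scale over the 2 libraries, which is a description of 2 values a gene. Nearest to Irgm2 was Slfn2, an interferon-induced Schlafen gene, at 0.293 FPKM in deficient and 16.2 FPKM in floxed cells. Nearest to Iigp1 was Zbp1, a sensor of Z-form nucleic acid, at 0.0599 FPKM in deficient and 12.1 FPKM in floxed cells. Gbp7 was nearest to Uba7, the activating enzyme of ISG15, at 0.253 FPKM in deficient and 8.73 FPKM in floxed cells, and then to Alpl and Kng1. Igtp was nearest to Phf11d, then to Pdpn and Xaf1. Gbp3 was nearest to Car3, a carbonic anhydrase of fat and muscle, at 0.323 FPKM in deficient and 32.7 FPKM in floxed cells, and then to Phf11d and Stc1. For the 2 genes that stayed expressed the neighbours were Maged2, Prdx4 and Actr2 for Irgm1 and Lamb1, Tnfrsf11b and Nfia for Gbp2. The remaining neighbours were Agt and Gpx3 for Irgm2 and Penk and Slfn2 for Iigp1.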

How the data were processed

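The libraries were read on a HiSeq2000 instrument, per the series' design text. The authors deposited 1 file per library with FPKM, bounds and coverage for each transcript, per the file headers and attribute text, which Cufflinks writes. The mouse build was mm9 and the tools were Cuffdiff 2.0.2, Cufflinks 2.0.2 and TopHat2 2.0.5, per the submitters' processing notes, which give no roles. What annotation, filters and strand setting were used is not given in the sources used here. Read counts were not used here, so the depth behind a value is unknown.

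The files hold no symbols. Each of 45543 transcripts was matched to GENCODE M21 (GRCm38) on the same chromosome and strand by the lengths, in order, of introns and internal exons, with a tolerance of 1% on the adjoining exon where 1 intron was used. No coordinates were converted, and gene coordinates are mm9. This named 38828 transcripts to 19623 genes, 25507 of them by the whole chain. Tried on a wrong chromosome, 0 of 25507 whole chains and 44 of 2155 introns with exon found a gene. Gm12250, Ly6g and Hba-a1 were not matched.

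FPKM was summed per gene. Genes and loci were kept when either library reached 1 FPKM and the longest transcript 300 nt, 10759 in all with 8799 named. Folds used a pseudocount of 1 FPKM, were centred on the median of the kept genes and were called at 2-fold, with no test. Only the computing and calling of folds was tested on simulated data, and not at the low levels where the pseudocount matters most. The members and lists were chosen with earlier results of these data known. The named genes were the 7 members, all matched GBP and IRG genes, from each list up to 4 kept genes with the largest fold (6 for the signalling genes), the 3 nearest genes of each member among named genes that are not predicted, and Pparg, with exceptions stated. A gene that the rule takes from the signalling list is not reported here. Marker genes were named after their values were seen. Shared sequence was counted over 50-base windows of GENCODE transcripts. Alternatives covered the pseudocount, filter, scaling, transcript choice, fold and background. Python 3.11.15, numpy 2.4.6, pandas 2.3.3 and matplotlib 3.10.9 were used.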

Additional observations from a re-analysis of the deposited data

How the results depend on the processing

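All 7 genes stayed at least 2-fold lower under every one of the 14 planned settings of the fold comparison, and 0 were higher. Naming whole loci in place of transcripts, added after seeing the data, merged Igtp into Irgm2 and left 6 of 6 lower. The folds of the 5 genes under 1 FPKM in deficient cells varied most with the pseudocount. At 0.1 and at 5 FPKM Gbp3 was at -7.72 and -3.20, Iigp1 at -7.41 and -2.31, and Gbp7 at -6.02 and -1.78. Over all settings Gbp2 ran between -2.62 and -1.38 and Irgm1 between -3.38 and -2.23. Of the other GBP and IRG genes 4, in place of 7, were lower with a pseudocount of 5 FPKM, and 4 with a filter of 5 FPKM, which tests fewer genes. The share of all kept genes at least 2-fold lower was 4.64% as deposited, 4.01% with a pseudocount of 5 FPKM, 2.16% without a filter and 5.04% as TPM. The share at least 2-fold higher was 42.0% as deposited, 16.1% with a pseudocount of 0.1 FPKM, 17.0% without a filter, 37.8% as TPM and 18.3% when scaled without the 100 most abundant loci. With the call at 1.5-fold, 20.5% were lower and 21.9% higher, and at 4-fold 3.93% were lower and 1.52% higher. Dividing the bounds by each library's upper quartile left 12 transcripts with deficient bounds below, beside 19.7% of all transcripts below and 22.1% above, and the 250 bases before the start alone left 6 promoters with an ISRE core and 3 with a GAS. No replicate could be left out. No paired analysis was possible because each group holds 1 library. Bounds describe the estimate within a library and not the spread between cultures.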

Other observations

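A pair of unnamed loci within 100 kb of these genes showed a similar direction. A 2-exon locus on the plus strand of chromosome 11 from 57997345 to 58003700 (mm9), 9358 bases before Igtp, had 0.0428 FPKM in deficient and 1.37 FPKM in floxed cells. A 2-exon locus on chromosome 18 from 60599074 to 60603588, 46791 bases after Iigp1, was listed at 0 in the deficient library against at 2.92 FPKM in the floxed one. No transcript of either matched the annotation. The chromosome 11 locus begins as far before Igtp as the RefSeq start of the IRG gene Gm12250 lies before that of Igtp, on the same strand. It is therefore probably Gm12250, which the matching by lengths did not find.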
